A study of Mus musculus with 6 samples.

Results

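The genes described here are 10 cell adhesion genes, the cadherins Cdh1, Cdh2, Cdh3, Cdh4, Cdh6, Cdh11, Cdh13, Cdh16 and Cdh17 and the epithelial adhesion molecule Epcam, out of 55471 gene identifiers in the deposited table. They were chosen by name, to set cadherins of mesenchymal cells beside those of epithelia and of the kidney, and all 10 were found under 1 identifier each. Polyadenylated RNA was sequenced from mesenchymal stromal cells of the mouse endosteum, the lining of the inner surface of bone, on the strain C57BL/6J. All 6 libraries carry the floxed Bap1 allele on both copies (Bap1fl/fl), and 3 of them are labelled WT. The other 3 are labelled cKO and add Prx1-cre, a Cre recombinase driven by a promoter of limb mesenchyme, so deletion is limited to cells of that lineage. Bap1 encodes a deubiquitinase of histone H2A, and the series title sets the question, the part of Bap1 in the marrow niche where lymphocytes form.

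Classical cadherins are calcium-dependent adhesion proteins that bind a like cadherin on the next cell and hold beta-catenin, p120-catenin and, through beta-catenin, alpha-catenin and the actin cytoskeleton on the cytoplasmic side. Mesenchymal cells are known for N-cadherin (Cdh2) and OB-cadherin (Cdh11), and epithelia for E-cadherin (Cdh1), P-cadherin (Cdh3) and Epcam, a membrane glycoprotein that is not a cadherin. Stromal cells of bone are known to express Cdh2 and Cdh11, which take part in osteoblast adhesion.

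The values are RPKM, fragments per kilobase of gene scaled to the size of the library, so levels can be set beside each other between genes. The step that 1 fragment makes in low values puts the depth at 13.5 to 15.4 megafragments in 5 libraries and 23 megafragments in cKO replicate 3. The WT libraries held 17697 to 17798 genes above 0 and the cKO libraries 17664 to 18925. Bap1 itself stood at 22.8, 22.72 and 24.01 RPKM in the WT and 28.27, 25.16 and 22.99 RPKM in the cKO libraries, and a value over the whole gene cannot show the loss of floxed exons. The labels are thus not checked by it, and WT and cKO mean the libraries so labelled. Nothing in the labels ties each library to an animal of its own, so the p-values reflect the spread among these samples alone, which may be technical. Library cKO replicate 3 stood apart from the other cKO libraries. On the first principal component, with 86.7% of the variance, it lay at 53 against 79.8 and 80.3, while the WT libraries lay at −72 to −69.8.

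Of the markers of mesenchymal stromal cells, 9 of 10 had a WT mean of at least 1 RPKM and 8 of 10 a cKO mean of at least 1 RPKM, and Lepr, a marker of perisinusoidal stroma, reached at most 0.14 RPKM. Their summed level was 2400 to 2540 RPKM in the WT libraries and 120 to 231 RPKM in the cKO libraries. Col1a1, Col1a2, Col3a1 and Cxcl12 held most of the WT sum. Mean levels in WT and cKO were 976 and 12.4 RPKM for Col1a2, 515 and 33.8 RPKM for Col1a1 and 263 and 3.12 RPKM for Col3a1. They were 508 and 31.6 RPKM for Cxcl12, 97.1 and 3.76 RPKM for Pdgfrb and 12.5 and 0.0733 RPKM for Thy1. Those of Pdgfra were 7.56 and 13.4 RPKM, of Prrx1 75.6 and 52.4 RPKM and of Twist1 17 and 15.4 RPKM. By the limma test described below, 6 of 9 tested markers were lower and 1 higher, against 26.5% and 34.7% of all tested genes. The higher one, Pdgfra, lost its call without any 1 WT library. The summed epithelial markers ran from 16 to 17.4 RPKM in WT and from 20.2 to 57.8 RPKM in cKO libraries, with a mean of at least 1 RPKM for 2 of 16 genes in WT and 4 of 16 in cKO. Spint2 alone made up 44.43, 31.25 and 11.6 RPKM of the cKO sums. Esrp2 also rose, from 0 to 0.07 RPKM in WT to 1.21 to 4.29 RPKM in cKO. Esrp1 and Elf3 were at 0 in WT and at 0.02 to 0.43 and 0.05 to 0.32 RPKM in cKO. The keratin Krt19 fell 4.21-fold (7.57-fold without cKO replicate 3), and Krt8 stood at 0.66 to 0.79 RPKM in WT and at 0 in cKO. Cldn3, Cldn4, Cldn8 and Grhl2 were at 0 in all 6 libraries, and Krt18 stayed at or below 0.1 RPKM. The kidney tubule markers summed to 17.9 to 20.4 RPKM in WT and 137 to 252 RPKM in cKO libraries. A single gene, the transcription factor Pax8, made up 124.15 to 243.21 RPKM of the cKO sums, and Umod, Calb1, Kl and Slc34a1 were at 0 in all 6 libraries. Sums of the other lists are given as WT against cKO. Endothelium gave 2.5 to 4.54 and 11.8 to 16.3 RPKM (Cldn5 and Tie1 at 0). Egfl7 alone made up 2.3 to 4.03 and 9.56 to 14.59 RPKM of these sums. Esam reached at most 1.94 RPKM and Pecam1, Cdh5, Kdr, Tek and Vwf at most 0.29 RPKM. Blood cells gave 0.52 to 0.92 and 0.43 to 2.58 RPKM (Cd3e, Gata1 and Laptm5 among those at 0). Schwann cells gave 1.11 to 2.25 and 1.16 to 1.81 RPKM (Sox10 and Foxd3 at 0). Intestinal epithelium gave 11.5 to 13.9 and 2.8 to 5.79 RPKM (Cdx2 and Alpi at 0). Of these sums Lgr5 made up 9.25 to 11.91 and 0 to 0.04 RPKM. Lgals4 and Muc2 went the other way, with means of 1.68 and 3.05 RPKM and of 0.247 and 1.51 RPKM. Muscle gave 2000 to 2220 and 71.7 to 1610 RPKM (Ckm, Myod1 and Myog at 0). Acta2 alone made up 1944.95 to 2145.34 and 68.78 to 1532.34 RPKM of the muscle sums. The part of these cell type markers in the cadherin values was not tested, and in bulk RNA fewer cells of a type and less RNA per cell cannot be told apart.

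Of 4 cadherins of mesenchymal and neural cells, 3 rose in the libraries labelled cKO, while the epithelial genes stayed below 1 RPKM in every library. The T-cadherin gene Cdh13 rose 22.1-fold and the OB-cadherin gene Cdh11 rose 4.64-fold. The R-cadherin gene Cdh4 rose from 0 in every WT library to between 12.44 and 37.69 RPKM, and the N-cadherin gene Cdh2 stood at 41.4 ± 2.61 RPKM in WT and 60.7 ± 30.9 RPKM in cKO libraries (mean ± SD, n = 3 here and below). Cdh1 did not exceed 0.12 RPKM in any library and Epcam did not exceed 0.29 RPKM. The kidney cadherin Cdh16 appeared at a low level, 1.37 to 2.14 RPKM, in the cKO libraries.

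**Figure D1:**
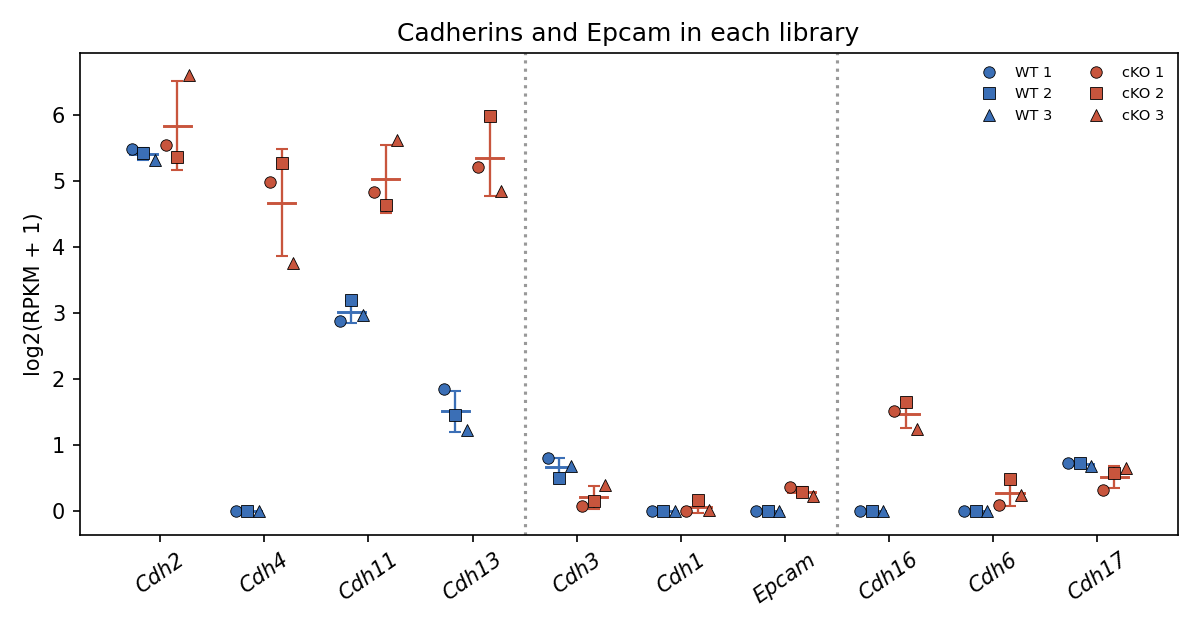
Level of each gene in each library on the log2(RPKM + 1) scale, with WT in blue, cKO in red, a symbol for each replicate, and bars for the mean and SD of 3 libraries. Dotted lines divide cadherins of mesenchymal and neural cells, the epithelial Cdh3, Cdh1 and Epcam, and the cadherins of kidney and intestine: Cdh4, Cdh11 and Cdh13 lie higher in all 3 cKO libraries, while the epithelial genes stay below 1 RPKM in every library.

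Differences were tested with limma on log2(RPKM + 1) wherever the 6 libraries averaged 1 RPKM or more, and a gene passed where its Benjamini-Hochberg adjusted p over all tested genes was under 0.05. Of the 10 genes 4 were tested, namely Cdh2, Cdh4, Cdh11 and Cdh13. The limma test called 3 of these 4 higher in cKO, where 34.7% of all 12223 tested genes were called higher, and 0 of 4 lower, where 26.5% were (0 of 4 lower also at an unadjusted p under 0.05). Cdh4 reached the minimum only through the cKO group, so its call follows in part from the minimum. The other 6 genes lay under the minimum and are given by their values.

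Read library by library, cKO replicates 1 and 2 each had 7 of the 10 genes above every WT library and 2 below, and cKO replicate 3 had 8 above and 2 below. Over the 23022 genes above 0 in a library, 39.7%, 40.7% and 41.9% lay above every WT library in cKO replicates 1 to 3, and 29.5%, 28.5% and 27.4% lay below. WT and cKO values were fully apart for 6 of the 10 genes in the higher direction (Cdh4, Cdh6, Cdh11, Cdh13, Cdh16 and Epcam) and for 2 in the lower (Cdh3 and Cdh17), against 27.3% and 21.1% of those 23022 genes. Cdh1 and Cdh2 overlapped. Of the 10 genes 5, namely Cdh1, Cdh4, Cdh6, Cdh16 and Epcam, were at 0 in every WT library. These could not lie below WT and were above 0 only in cKO libraries. The counts of the 10 genes thus lean to the higher side by construction, and their distance from the shares over all genes carries no test.

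Cdh2, the N-cadherin of mesenchyme, neurons and heart, was the most abundant of the 10 genes in every WT library (chromosome 18, 16588877 to 16809246, GRCm38, minus strand, as for all coordinates here from GENCODE M21). It stood at 43.88, 41.78 and 38.69 RPKM in WT and at 45.7, 40.12 and 96.25 RPKM in cKO, given in order of replicate number as for all genes here. In cKO replicate 2 Cdh13 exceeded it, and without cKO replicate 3 the cKO mean of Cdh13, 49.1 RPKM, lay above that of Cdh2, 42.9 RPKM. A single library, cKO replicate 3, stood high, and cKO replicate 2 lay within the WT range. The difference in log2(RPKM + 1) was 0.43 ± 0.31 (SE), with a 95% interval of −0.31 to 1.18 and a limma Benjamini-Hochberg adjusted p of 0.268. Without cKO replicate 3 the difference was 0.05 ± 0.09 (SE), with a limma adjusted p of 0.665.

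Cdh11, the OB-cadherin of osteoblasts and fibroblasts, stood at 6.36, 8.19 and 6.86 RPKM in WT and at 27.55, 23.83 and 47.88 RPKM in cKO (chromosome 8, 102632095 to 102785642, minus strand). Every cKO library lay above every WT library, and cKO replicate 3 was again the highest, 1.86-fold above the mean of the other cKO libraries. The rise of 4.64-fold amounted to 2.01 ± 0.26 (SE) in log2, and limma gave a Benjamini-Hochberg adjusted p of 0.000693. It was 3.6-fold without cKO replicate 3.

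Cdh13, the T-cadherin, is held in the membrane by a lipid anchor and has no cytoplasmic tail for catenins, and it is known as a receptor for adiponectin and low-density lipoprotein. It stood at 2.61, 1.73 and 1.35 RPKM in WT and at 35.92, 62.22 and 27.87 RPKM in cKO (chromosome 8, 118283733 to 119324921, plus strand). The groups lay far apart, and within the cKO group replicate 3 was the lowest. The log2 difference was 3.84 ± 0.31 (SE), at a Benjamini-Hochberg adjusted p of 0.000105 by limma, and the fold change ran from 16.8 to 27.3 when each library was left out in turn.

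Cdh4, the R-cadherin, was first described in retina and is a close relative of N-cadherin, found in neurons, developing muscle and kidney. No WT library showed any value for it, and it stood at 30.7, 37.69 and 12.44 RPKM in cKO (chromosome 2, 179442431 to 179899373, plus strand). On the longest coding transcript these values correspond to about 2561, 3461 and 1770 fragments. A WT library would have shown 0.036 RPKM or less with 3 fragments, a limit that covers counting error only, so the cKO mean of 26.9 ± 13 RPKM was at least 748-fold higher. Here cKO replicate 3 was the lowest, 2.75-fold below the mean of the other cKO libraries. The log2 difference was 4.67 ± 0.38 (SE), and the Benjamini-Hochberg adjusted p by limma was 0.00011.

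The order of cKO libraries thus differed between these genes. Cdh2 and Cdh11 were highest in cKO replicate 3, and Cdh4 and Cdh13 lowest there. Over all 10 genes, cKO replicate 3 was the highest of the cKO libraries in 4 and the lowest in 4. The smooth muscle actin Acta2, a marker in the muscle list, also separated that library, at 68.78 and 149.26 RPKM in cKO replicates 1 and 2 and 1532.34 RPKM in replicate 3. Its part in the cadherin values was not tested.

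As an RNA pool, the 9 cadherins summed to 54.25, 52.77 and 48.11 RPKM in WT and to 142.1, 167.12 and 186.9 RPKM in cKO. Cdh2 made up 80.9%, 79.2% and 80.4% of the WT sums and 32.2%, 24% and 51.5% of the cKO sums. Cdh13 rose in share from 2.81 to 4.81% in WT libraries to 14.9 to 37.2% in cKO libraries. Cdh4 went from none to 21.6%, 22.6% and 6.66%. Cdh11 held 11.7 to 15.5% in WT and 14.3 to 25.6% in cKO libraries, so the ranges of its share overlapped although its level rose. The mesenchymal and neural cadherins Cdh2, Cdh4, Cdh11 and Cdh13 together made up 97.4 to 98% of the sum in WT and 98 to 98.7% in cKO libraries. Cdh4, which is also found in kidney, is counted among them, so the cKO share depends on this grouping. These shares describe the chosen genes and carry no test.

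**Figure D2:**
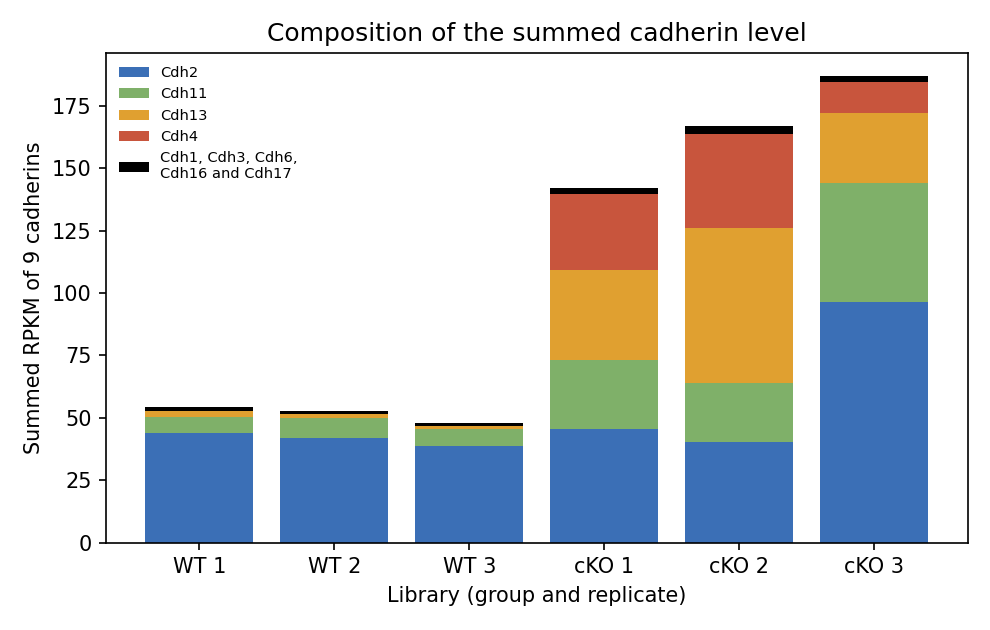
Summed RPKM of the 9 cadherins in each library, stacked by gene, with Cdh1, Cdh3, Cdh6, Cdh16 and Cdh17 together in black. Cdh2 fills 80.4% of the bar of WT replicate 3, while Cdh13, Cdh4 and Cdh11 fill most of the bars of cKO replicates 1 and 2.

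By level, the WT order was Cdh2, Cdh11 and Cdh13, each above the next in every library, then Cdh17 and Cdh3, whose ranges overlapped, and then Cdh1, Cdh4, Cdh6, Cdh16 and Epcam at 0. In the cKO libraries the leading cadherins Cdh2, Cdh13, Cdh11 and Cdh4 had overlapping ranges at each step of that order. All 4 lay above Cdh16, and Cdh16 lay above Cdh17 in every cKO library. From Cdh17 downward, through Epcam, Cdh6, Cdh3 and Cdh1, the ranges of neighbours overlapped.

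Of the epithelial genes, Cdh1 and Epcam stayed near the limit of detection. Cdh1, the E-cadherin of epithelial adherens junctions, was listed at 0 in the WT libraries and stood at 0, 0.12 and 0.01 RPKM in cKO (chromosome 8, 106603351 to 106670246, plus strand). The value of 0.12 RPKM corresponds to about 8 fragments, and 3 fragments would give 0.031 to 0.053 RPKM. Only cKO replicate 2 lay above that limit.

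Cdh3, the P-cadherin of basal epithelia, lies 46 kb from Cdh1 and, unlike it, was detected in the WT libraries. It stood at 0.74, 0.42 and 0.6 RPKM in WT and at 0.05, 0.11 and 0.32 RPKM in cKO libraries (chromosome 8, 106510891 to 106557297, plus strand). All 3 cKO values lay below all 3 WT values, and cKO replicate 3 was the closest to them. The cKO values correspond to about 3, 7 and 31 fragments and the WT values to about 24 to 47 fragments. With the minimum lowered to a mean of 0.1 RPKM, its log2 difference of −0.45 ± 0.13 (SE) passed (Benjamini-Hochberg adjusted p by limma 0.0264), and the fold of means, 3.67-fold lower, was 7.33-fold without cKO replicate 3. Under that minimum, 22.8% of 16715 tested genes were called lower and 29.1% higher.

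Epcam, which marks simple epithelia and is known to interfere with cadherin contacts, was at 0 in the WT libraries. It stood at 0.29, 0.22 and 0.17 RPKM in cKO (chromosome 17, 87635979 to 87651129, plus strand). These are about 7, 6 and 7 fragments, and 3 fragments would give 0.071 to 0.12 RPKM. The cKO values did not overlap with WT but were all low, at least 1.89-fold above the limit on average. With the minimum of 0.1 RPKM its log2 difference was 0.29 ± 0.08 (SE), and limma gave a Benjamini-Hochberg adjusted p of 0.0219. Its place among tested genes there rests on the cKO group alone.

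Promoter sequence was matched in RefSeq (GRCm38.p6) for 2 of the 10 genes, Epcam and Cdh6. The 250 bases before the Epcam start are shown because they hold the E-box read by the Zeb and Snail repressors, whose levels are given further on. The site CACCTG, read on both strands and so also found as CAGGTG, is in capitals, and the run is chr17:87635729-87635978, plus strand, 5′ to 3′.
Epcam: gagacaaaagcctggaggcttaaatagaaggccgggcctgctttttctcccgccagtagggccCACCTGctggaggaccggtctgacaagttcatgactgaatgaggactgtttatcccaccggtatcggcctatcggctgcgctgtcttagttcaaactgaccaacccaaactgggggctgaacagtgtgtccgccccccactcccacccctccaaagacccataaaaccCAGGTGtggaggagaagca
The site occurs 2 times, beginning at −187 and −19 counted from the start, and 17.2% of 32851 promoter windows of the same length hold it at least once. The window of Cdh6 does not contain it. A match of letters is a description and shows no binding.

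Among the cadherins known from kidney and intestine, Cdh16 changed from listed at 0 to detected. Cdh16, the kidney-specific or Ksp-cadherin of tubule epithelium, with a short tail that does not bind catenins, showed no signal in WT and stood at 1.86, 2.14 and 1.37 RPKM in cKO (chromosome 8, 104601911 to 104624396, minus strand). These are about 68, 86 and 86 fragments, and the cKO mean of 1.79 ± 0.39 RPKM was at least 22.1-fold above the 0.081 RPKM that 3 fragments would give. The cKO libraries lay close together, and replicate 3 was the lowest. The mean over the 6 libraries was under 1 RPKM. With the minimum of 0.1 RPKM the log2 difference was 1.47 ± 0.13 (SE), at a Benjamini-Hochberg adjusted p of 0.000206 by limma, and there too the gene passed the minimum through the cKO group. Pax8, known to bind the Cdh16 promoter in thyroid cells, stood at 0.12 to 0.21 RPKM in WT against the cKO values given above. Its part in the Cdh16 value was not tested.

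Cdh6, the K-cadherin of kidney and of neural crest, was likewise at 0 in WT and stood at 0.07, 0.4 and 0.19 RPKM in cKO (chromosome 15, 13028701 to 13173675, minus strand). On its long transcript these are about 8, 47 and 35 fragments, and each lay above the 0.016 to 0.028 RPKM that 3 fragments would give. Against the 0.028 RPKM that 3 fragments would give in WT, cKO replicates 1 to 3 were at least 2.5-fold, 14.3-fold and 6.79-fold higher. With the minimum of 0.1 RPKM it did not pass (log2 difference 0.28 ± 0.12 (SE), limma Benjamini-Hochberg adjusted p 0.0851). Cdh17, the liver-intestine cadherin, stood at 0.66, 0.65 and 0.61 RPKM in WT and at 0.25, 0.49 and 0.57 RPKM in cKO libraries (chromosome 4, 11758147 to 11817895, plus strand). The groups did not overlap, but cKO replicate 3 came within 0.04 RPKM of the lowest WT library. It did not pass with the lower minimum either (log2 difference −0.2 ± 0.12 (SE), limma Benjamini-Hochberg adjusted p 0.204). The intestinal factor Cdx2, known to drive Cdh17, was at 0 in all 6 libraries.

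The cadherins of chromosome 8 did not move together. Of the 10 genes 5 lie on chromosome 8, which holds 8 genes with a Cdh symbol, in the order Cdh8, Cdh11, Cdh5, Cdh16, Cdh3, Cdh1, Cdh13 and Cdh15. Cdh11 and Cdh13 rose and Cdh16 went from 0 to detected, whereas Cdh3 lay lower, Cdh1 stayed near 0, Cdh8 was at 0 in every library and Cdh5, the cadherin of endothelium, reached at most 0.02 RPKM. Cdh15, the cadherin of muscle precursors, stood at 0.04 to 0.12 RPKM in cKO libraries and at 0 in WT. Over the 674 tested genes of chromosome 8, the median log2 difference was −0.06, with 19.6% called higher and 29.7% lower, and over all tested genes it was 0.09. With each chromosome centred on its median, Cdh11, Cdh13 and Cdh4 kept their limma calls, at log2 differences of 2.07, 3.9 and 4.78. Within 1 Mb of Cdh13, 13 of 20 tested genes were higher and 2 lower. Within 1 Mb of Cdh16, 2 of 31 were higher and 17 lower. Around Cdh4 the counts were 2 higher and 5 lower of 15, where 20.7% of tested genes of chromosome 2 were higher and 32.6% lower. Cdh11 had 1 tested neighbour, which did not pass. Around Cdh17, which did not rise, 10 of 15 were higher and 0 lower, where 49.8% of tested genes of chromosome 4 were higher and 19.4% lower. No annotated gene overlapping a member exceeded 0.19 RPKM in any library.

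Genes with the most similar profile were sought by the root mean square difference of log2(RPKM + 1) over the 6 libraries, each gene centred on its own mean. Nearest to Cdh2 were Igdcc4, Cuedc1 and Cfl2, at 0.12, 0.13 and 0.13. Nearest to Cdh11 were St8sia2, Tro and Fam49a, at 0.12, 0.15 and 0.15, and nearest to Cdh16 were Tcf7, Tm2d1 and Tlcd1, at 0.051, 0.055 and 0.059. St8sia2, a sialyltransferase, stood at 0.01, 0 and 0 RPKM in WT and at 2.91, 2.01 and 5.59 RPKM in cKO libraries, with cKO replicate 3 the highest as for Cdh11. For Cdh1 the nearest were Prep, Rpl10 and Tab2 (0.022, 0.025 and 0.03) and for Epcam Ddx39b, Aggf1 and Slc25a3 (0.017, 0.022 and 0.025). Cdh1 and Epcam hardly vary on this scale, so the measure returns genes of any level that hardly vary. These likenesses are descriptions over 6 libraries of 2 groups.

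The catenins that link cadherins to actin were abundant in both groups and changed in both directions. Of 20 genes of cytoplasmic partners 16 were tested, of which 7 rose, 5 fell and 4 did not pass, where 34.7% of all tested genes rose and 26.5% fell. The median log2 difference was 0.17 against 0.09 over all tested genes. The largest rise was that of Jup, plakoglobin, which serves both adherens junctions and desmosomes. It stood at 0.91, 1.05 and 1.44 RPKM in WT and 72.93, 45.17 and 42.12 RPKM in cKO libraries, a 47.1-fold rise with a limma adjusted p of 1.49e-05 (Benjamini-Hochberg). Beta-catenin (Ctnnb1), named here outside the rule for named genes, is its close relative and rose 1.31-fold from 260 ± 9.04 to 342 ± 34.3 RPKM. Ctnna1, the alpha-catenin that binds actin, fell 1.38-fold from 148 ± 3.06 to 107 ± 3.92 RPKM. Ctnnd1, the p120-catenin that keeps cadherins at the surface, fell 1.54-fold from 92.5 ± 0.676 to 60.1 ± 6.49 RPKM. Ctnnal1 (alpha-catulin) rose 8.09-fold and Pkp4, an armadillo protein of the p120 family, rose 1.82-fold. The calls of Afdn, Cbll1 and Pip5k1c as higher and of Plekha7 as lower did not hold without WT replicate 1 (limma adjusted p 0.0943, 0.116, 0.0719 and 0.0555). Afdn also lost its call without WT replicate 2 and without cKO replicate 1 or 2 (limma adjusted p 0.0881, 0.0751 and 0.0723). With single libraries left out, Cbll1 kept its call only without cKO replicate 2. Pip5k1c also lost its call without WT replicate 2 and Plekha7 without WT replicate 3 (limma adjusted p 0.0604 and 0.0716). Ctnna2 and Ctnna3, the alpha-catenins of neurons and of heart, were at 0 in all libraries. Vcl, vinculin, stood at 69.59 and 74.99 RPKM in cKO replicates 1 and 2 and at 188.84 RPKM in replicate 3, against 169.25 to 180.2 RPKM in WT. It passed as lower only without cKO replicate 3 (2.43-fold, limma Benjamini-Hochberg adjusted p 1.93e-05).

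**Figure D3:**
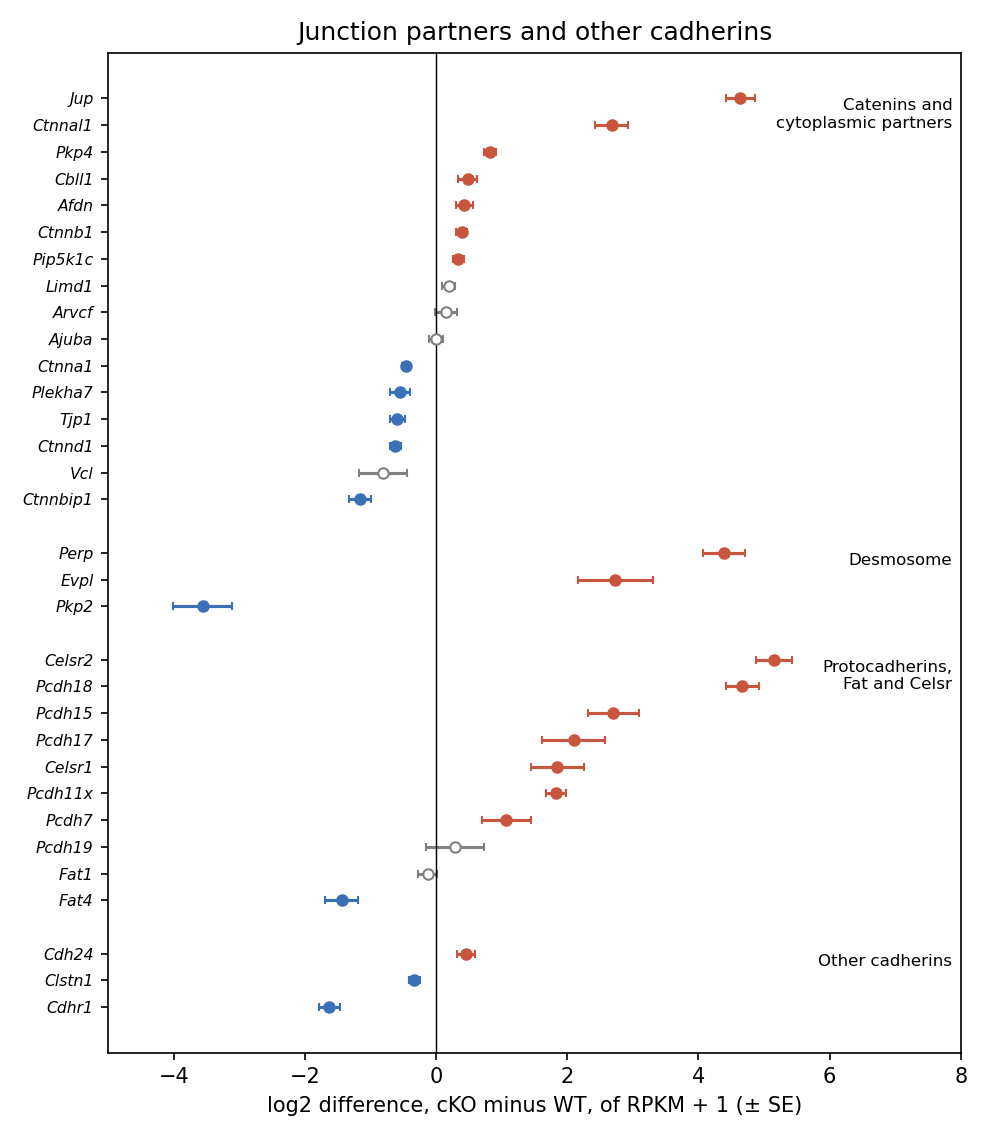
Difference in log2(RPKM + 1) between cKO and WT libraries, with its SE, for the tested genes of 4 lists, in red where called higher, in blue where called lower and open where not passed. Jup, Perp, Celsr2 and Pcdh18 lie beyond 4 to the right, and Pkp2 is the lowest at −3.56.

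Of the desmosome genes 3 of 15 were tested, of which 2 rose and 1 fell, 3 genes being too few for a share. Perp, a membrane protein of desmosomes, stood at 0.04 to 0.08 RPKM in WT and 12.39 to 31.8 RPKM in cKO libraries, and Evpl, envoplakin, at 0.06 to 0.08 and 1.64 to 11.5 RPKM, so both reached the minimum through the cKO group. Pkp2, the plakophilin of heart and simple epithelia, fell 15-fold (43.7-fold without cKO replicate 3), from 26.9 ± 1.5 to 1.79 ± 2.04 RPKM. Among the untested, the desmosomal cadherin Dsc2 stood at 0.04 to 0.1 RPKM in WT and 0.74 to 1.53 RPKM in cKO, and Ppl, periplakin, at 0.22 to 0.51 and 0.99 to 1.56 RPKM. The desmosomal cadherins Dsg1a, Dsg1b, Dsg4 and Dsc1 were at 0 in all 6 libraries. Of 5 nectins and nectin-like genes 4 were tested, and Pvr rose 1.27-fold and Nectin1 fell 1.74-fold, calls that were lost without cKO replicate 1 for Pvr (limma adjusted p 0.0742) and without cKO replicate 2 for Nectin1 (0.0711). Both calls were also lost without WT replicate 1 (0.0826 and 0.06), that of Pvr without WT replicate 2 (0.0953) and that of Nectin1 without WT replicate 3 (0.099).

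Of 21 protocadherins and large cadherins 10 were tested, of which 7 rose and 1 fell (7 and 3 without cKO replicate 3), where 34.7% and 26.5% of all tested genes did. Of the 7, Celsr1, Celsr2, Pcdh11x, Pcdh15 and Pcdh17 reached the minimum through the cKO group, so the count leans to the higher side by construction. Pcdh1 lay under the minimum and was not tested, at 1.57 to 1.71 RPKM in WT and 0.01 to 0.13 RPKM in cKO. The call of Pcdh7 (2.73-fold higher, 1.78-fold without cKO replicate 3) did not hold when WT replicate 1, 2 or 3 or cKO replicate 1 was left out (limma adjusted p 0.102, 0.1, 0.108 and 0.0806). Pcdh18, a delta-protocadherin, rose 35.1-fold from 2.93 ± 0.446 to 103 ± 37.5 RPKM. Celsr2, a planar polarity cadherin, stood at 0 to 0.01 RPKM in WT and at 51.43, 36.19 and 22.41 RPKM in cKO libraries. Pcdh11x and Pcdh15, protocadherins known from brain and from hair cells of the inner ear, were at 0 in WT and at 2.26 to 2.87 and 2.41 to 8.51 RPKM in cKO libraries. Fat4, a planar polarity cadherin of mesenchyme, fell 4.55-fold (7.55-fold without cKO replicate 3), from 3.78 ± 0.0231 to 0.83 ± 0.624 RPKM.

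Other cadherins were mostly low. Of 22 genes 7 were at 0 in every library and 3 were tested. Cdhr1, the photoreceptor cadherin, fell from 3.11 to 3.52 RPKM to 0.16 to 0.56 RPKM (limma Benjamini-Hochberg adjusted p 0.000256). Clstn1, calsyntenin, fell 1.27-fold and the classical cadherin Cdh24 rose 1.47-fold. Clstn1 lost its call when WT replicate 1 or 3 was left out (limma adjusted p 0.0679 and 0.0603). That of Cdh24 was lost without WT replicate 1, 2 or 3 and without cKO replicate 2 or 3 (0.07, 0.0772, 0.0848, 0.0737 and 0.0528).

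Genes known to bind, cleave or stabilise Epcam were mixed as well. Of 13 genes 8 were tested, of which 5 rose and 2 fell (5 and 3 without cKO replicate 3), where 34.7% and 26.5% of all tested genes did. Of the 5, Spint2 and Bace2 were at 0 in every WT library and reached the minimum through the cKO group. The call of Cd9 (1.5-fold higher) held without cKO replicate 3 and was lost when any other library was left out (limma adjusted p 0.0606 to 0.0805). Spint2, a membrane inhibitor of the protease that cleaves Epcam, went from 0 in WT to 44.43, 31.25 and 11.6 RPKM in cKO. Of the sheddases, Adam17 rose 1.55-fold and Adam10, which cleaves N-cadherin and E-cadherin, fell 1.54-fold from 43 ± 1.69 to 27.8 ± 4.11 RPKM. Fhl2, which binds the released tail of Epcam, fell 4.96-fold, and 12.1-fold without cKO replicate 3. Outside the rule for named genes, Cldn7, the claudin that partners with Epcam, was above 0 in 1 library of each group (0.4 and 0.44 RPKM).

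Of 18 transcription factors known for control of Cdh1 or Epcam 10 were tested, of which 8 fell, 1 rose and 1 did not pass, where 26.5% of all tested genes fell and 34.7% rose. The counts were the same without cKO replicate 3, and the median log2 difference was −1.49. Foxa1 and Tcf4 were among those that reached the minimum through the WT group. Among the untested factors, Klf8 stood at 0.55 to 0.65 RPKM in WT and 1.11 to 1.14 RPKM in cKO, and Ovol2 at 0 in WT and 0.19 to 0.94 RPKM in cKO. Snai2 (Slug), a zinc finger repressor of Cdh1, fell 2.67-fold from 46 ± 2.65 to 17.2 ± 5.6 RPKM, and its relative Snai1 (Snail) fell 8.31-fold from 25.2 ± 4.06 to 3.03 ± 3.65 RPKM, or 27.2-fold without cKO replicate 3. Zeb2 fell 2.31-fold from 13 ± 1.07 to 5.63 ± 0.455 RPKM. Zeb1 stood at 14.79, 17.93 and 18.37 RPKM in WT and at 7.91, 6.55 and 13.51 RPKM in cKO libraries. The call of Zeb1 (1.83-fold lower, limma Benjamini-Hochberg adjusted p 0.0212) did not hold without WT replicate 2 or 3 (0.0707 and 0.0712), nor without cKO replicate 1 or 2 (0.0665 and 0.0508).

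Among the basic helix-loop-helix repressors, Twist2 fell 3.67-fold, Twist1 stood at 17 ± 0.831 and 15.4 ± 0.521 RPKM and did not pass (limma adjusted p 0.204), and Tcf3, the E2A gene, rose 1.44-fold. Tcf4 (the ITF2 protein) fell 36.2-fold (66.7-fold without cKO replicate 3), from between 22.57 and 26.22 RPKM to between 0.14 and 1.27 RPKM. On the epithelial side, Foxa1 fell from 2.39 to 2.57 RPKM to 0.14 to 0.22 RPKM. Grhl2 and Cdx2, activators of epithelial genes, were at 0 in all 6 libraries.

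**Figure D4:**
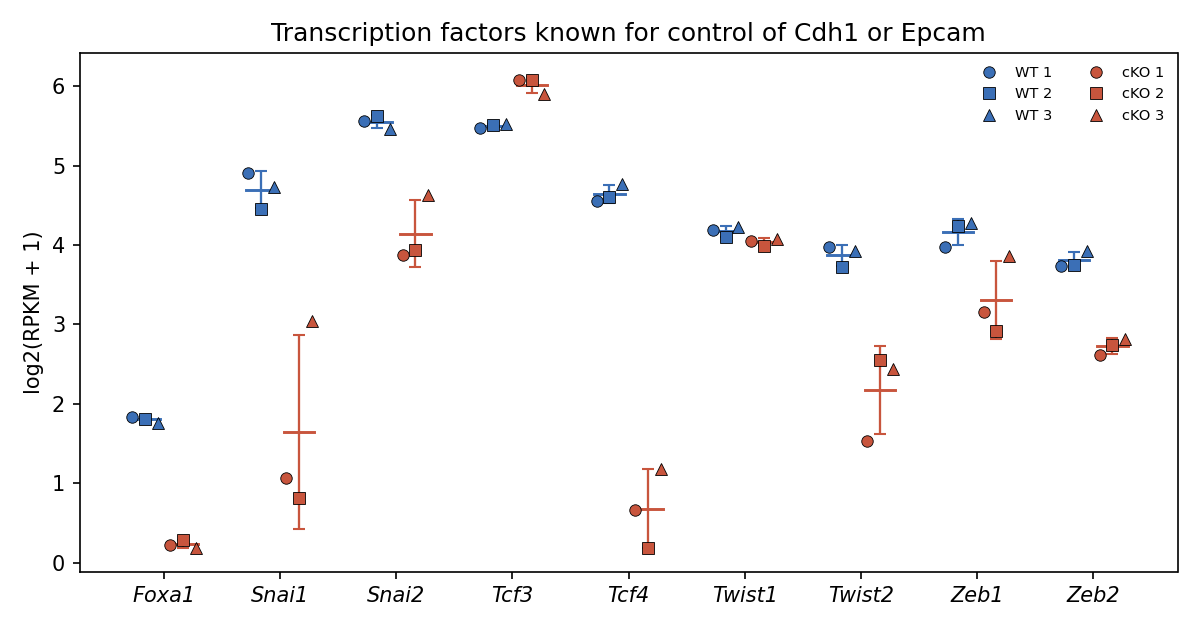
Level of tested factors in each library on the log2(RPKM + 1) scale, with symbols and bars as in the plot of the cadherins. Snai1 and Zeb1 spread widely among the cKO libraries, where replicate 3 is the highest, while Tcf3 alone lies higher in all 3 cKO libraries.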

How the data were processed

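The authors deposited RPKM per Ensembl gene identifier for 6 libraries. Tools named, per the submitters' processing notes, are RSEM 1.3.1, STAR 2.7.1a and cutadapt 2.8, with the build GRCm38. The annotation version is not given in the sources used here. Per the labels, libraries were stranded, polyA-selected and paired-end. Symbols and coordinates came from GENCODE M21 (55230 of 55471 identifiers). The genes and lists were chosen with earlier results of these data known. Depth was estimated from low RPKM values of single-transcript genes of 800 to 3500 bp, less 200 bp, of which 83.9 to 95.4% fell within 0.2 of a whole fragment, where chance gives 40%. Fragment numbers of a gene assume its longest coding transcript and are estimates.

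Testing used limma 3.58.1, run under R 4.3.3, on log2(RPKM + 1). Tests were 2-sided, with a variance prior following the mean, a minimum mean of 1 RPKM and genotype as the only term. Adjusted p-values are Benjamini-Hochberg over all 12223 tested genes, and folds are ratios of mean RPKM. Alternatives were pseudocounts of 0.1 and 0.5, other minimums, equal totals, trimmed-mean (TMM), median-of-ratios and quantile scaling, chromosome centring, other variance priors, sample weights, a replicate block, a log2 threshold of 1 and leaving out each library. Besides the 10 genes, the text names up to 5 tested genes with the smallest p from each list, all tested transcription factors, and the nearest 3 genes by profile for 5 genes. Others, such as list genes at 0, Vcl, Cldn7 and the marker genes, were chosen after their values were seen. Some genes under this rule are counted in their lists and not reported here by name. In each of 5 simulations of 12223 genes, 200 genes were raised and the rest left unchanged. The procedure recovered 25.2% of changes of 0.5, 69.2% of 1, 88.8% of 2 and 99.2% of 4 on the log2 scale. Of its calls 3.81% were false. The data held far more calls, in both directions, so these rates need not hold for them. Python 3.11.15 and pandas 2.3.3 were also used.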

Additional observations from a re-analysis of the deposited data

How the results depend on the processing

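The calls of Cdh4, Cdh11 and Cdh13 as higher, and of Cdh2 as not passed, held under every alternative run. With a minimum mean of 0.1 RPKM or no minimum, 5 genes were higher (Cdh16 and Epcam in addition) and 1 was lower (Cdh3). More genes were tested there, namely all described here but Cdh1 with the minimum of 0.1 RPKM, and Cdh1 too with none. Cdh16 and Epcam were above 0 only in cKO libraries, so their entry rests on the cKO group. Over all genes, 4865 of 16715 were higher and 3804 lower with the minimum of 0.1 RPKM. With no minimum, 4714 of 23022 were higher and 3862 lower. Leaving out a library gave 3 to 4 genes higher and 0 lower, the fourth being Cdh16, which reached the minimum without any 1 WT library. The log2 difference of Cdh4 ran from 4.37 to 5.13, of Cdh11 from 1.72 to 2.21, of Cdh13 from 3.52 to 4.08 and of Cdh2 from 0.05 to 0.67 over the libraries left out. A pseudocount of 0.1 raised that of Cdh4 to 7.93. Same-numbered libraries did not deviate together (r of −0.02, 0.05 and −0.02), and with the replicate block the log2 differences stayed at 4.67, 2.01, 3.84 and 0.43 for Cdh4, Cdh11, Cdh13 and Cdh2, with 3 genes higher. Estimated depth limits what can be said of Cdh1, Epcam and Cdh6, which rest on 0 to 47 fragments a library.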
